A study of Mus musculus with 15 samples.

Results

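The NRF2 antioxidant program was followed here through 10 genes in bulk RNA-seq of subcutaneous kidney tumors in mice. The genes were chosen by symbol as textbook members of the program, out of 18279 genes in the table, and all 10 were found and passed every filter. They are the transcription factor gene *Nfe2l2*, which encodes NRF2, its inhibitor *Keap1*, and the target genes *Nqo1*, *Gclc*, *Gclm*, *Txnrd1*, *Srxn1*, *Hmox1*, *Slc7a11* and *G6pdx*. The tumors grew from Renca, a murine renal cell carcinoma line of BALB/c origin, after injection of 500000 cells in Matrigel under the skin of the back of female BALB/c mice aged 4 to 6 weeks. There were 3 groups of 5 tumors, from control knockout cells (tumors 1 to 5), from *Pbrm1* knockout clone 4 (tumors 6 to 10) and from *Pbrm1* knockout clone 18 (tumors 11 to 15). *Pbrm1* encodes a subunit of the PBAF chromatin remodeling complex. GEO's sample records give parental cells as the source of the first group and the series design gives control knockout cells, so the name control tumors is used here for both readings. The knockouts were made with plasmid-delivered Cas9 and a repair plasmid carrying puromycin resistance and a red fluorescent protein, and each knockout line was 1 clone, so that differences between genotypes cannot be told apart from differences between lines. Some mice of the study received PD-1 antibody and others none, and the sources used here do not say which applied to these tumors. Tumors were collected at a volume of 1000 mm3, at ulceration or at signs of distress. The paper reports that untreated *Pbrm1* knockout tumors grew more slowly than control tumors. The days of growth of these tumors are not given in the sources used here, so growth time cannot be told apart from genotype.

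NRF2 is a basic leucine zipper factor that pairs with small MAF proteins and binds antioxidant response elements in the DNA of genes for detoxification, glutathione and NADPH supply. In unstressed cells KEAP1 holds NRF2 and hands it to a CUL3 and RBX1 ubiquitin ligase for degradation, and electrophiles or oxidants that modify KEAP1 let NRF2 accumulate. Most of this control acts on the NRF2 protein, so the *Nfe2l2* transcript level does not measure NRF2 activity. The program is known in renal cancer, where some tumors carry mutations of its regulators.

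The core of the antioxidant response element was searched in the promoters because the target genes are defined by it, and the matches are shown here so that the members can be compared at the sequence level. The promoter windows of RefSeq (GRCm38.p6) run from 250 bases before to 50 bases after an annotated start of transcription, and 8 of the 10 members had at least 1 window. The motif TGACNNNGC was found on either strand in a window of 5 of these 8 genes, and of 27025 genes with a window 13.99% held it. The capitals mark the core in 29 bases of the promoter strand, written 5′ to 3′, and where the core lies on the other strand the capitals show its complement.
*Nfe2l2*, chr2:75704885-75704913, minus strand: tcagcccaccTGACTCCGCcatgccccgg
*Gclm*, chr3:122245413-122245441, plus strand: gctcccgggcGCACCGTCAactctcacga
*Txnrd1*, chr10:82859104-82859132, plus strand: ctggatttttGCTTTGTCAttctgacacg
*Srxn1*, chr2:152105542-152105570, plus strand: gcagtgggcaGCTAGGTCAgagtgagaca
*G6pdx*, chrX:74428919-74428947, minus strand: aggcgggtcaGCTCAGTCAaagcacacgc
The *Nfe2l2* core is on the promoter strand and begins 240 bases before the start, and the other 4 are on the opposite strand. Counted from the start of transcription, the match began 134 bases upstream in *Gclm*, 92 upstream in 1 of the 3 windows of *Txnrd1*, 57 upstream in *G6pdx* and 29 downstream in *Srxn1*. None of the 5 cores overlapped the AP-1 core TGANTCA. The *Srxn1* window held 2 AP-1 cores elsewhere, and the other windows of the members held none. Among these 2, the stretch tgagtcagc is not matched by the search letters TGACNNNGC. The windows of *Keap1*, *Nqo1* and *Slc7a11* held no match, which says only that these letters are not in those windows.

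The promoters of *Gclm* and *Nqo1*, the 2 genes that moved most in opposite directions below, differ in this respect, and their 250 bases before the start are printed for comparison. *Txnrd1* also holds the core in a window but was lower in the knockout tumors. *Nfe2l2*, *Srxn1* and *G6pdx* hold it and were not called in the pooled comparison. A link between the core and the direction of change was not tested. In the *Gclm* stretch the capitals mark the same core as above, and the *Nqo1* stretch has none to mark.
*Gclm*, chr3:122245307-122245556, plus strand: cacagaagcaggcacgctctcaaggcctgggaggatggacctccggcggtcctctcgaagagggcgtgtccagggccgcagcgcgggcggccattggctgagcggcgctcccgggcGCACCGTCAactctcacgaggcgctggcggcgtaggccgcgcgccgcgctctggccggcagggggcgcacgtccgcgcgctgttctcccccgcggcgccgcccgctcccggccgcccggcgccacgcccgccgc
*Nqo1*, chr8:107403206-107403455, minus strand: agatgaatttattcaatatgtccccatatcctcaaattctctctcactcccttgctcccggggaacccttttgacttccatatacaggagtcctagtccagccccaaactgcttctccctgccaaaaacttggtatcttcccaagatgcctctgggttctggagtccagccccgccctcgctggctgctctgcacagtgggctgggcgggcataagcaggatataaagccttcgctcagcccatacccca
Over the whole 300-base window, 79.7% of the bases were G or C in *Gclm* and 53.7% in *Nqo1*.

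Values are normalized counts, the reads on a gene divided by a size factor per tumor. Between 32924414 and 49099168 reads per tumor fell on genes, and the members had between 658 reads (*Slc7a11*) and 27705 reads (*Srxn1*) in a tumor. *Pbrm1* itself was at 9012 ± 956 in the control tumors (SD, n = 5) and at 2795 ± 205 in the knockout tumors (SD, n = 10), 31.0% of the control mean, with no overlap between the groups. The renal and epithelial markers *Cdh16*, *Pax8*, *Krt8* and *Krt18* were present in every tumor, and of the 8 markers of this list *Epcam* was higher (1.23, SE 0.263, adjusted p = 0.00286) and *Krt18* lower in the knockout tumors (−0.32, SE 0.093, adjusted p = 0.0197, lost without tumor 2 or 4, adjusted p 0.0598 to 0.0644). Host cells were present too, and of 10 macrophage markers 5 were lower and 0 higher in the knockout tumors, where 12.9% of all genes tested were called lower and 9.23% higher (limma, adjusted p under 0.05; no macrophage marker was higher at an unadjusted p under 0.05 or with edgeR or DESeq2), with a summed level of 81974 to 108191 in the control tumors, 64393 to 80601 in clone 4 and 58352 to 78157 in clone 18. By clone against control, 3 macrophage markers were lower and 0 higher in clone 4, beside 10.0% and 6.79% of all genes tested. None was higher in clone 4 at an unadjusted p under 0.05 or by edgeR or DESeq2. In clone 18, 7 were lower and 1, *Cd68*, was higher (0.38, SE 0.11, adjusted p = 0.018), beside 14.2% and 10.4%. Of 8 T cell markers 3 were lower and 0 higher in the pooled knockout tumors. The same 0 held at an unadjusted p under 0.05 and by edgeR and DESeq2. Their summed level was 550 to 1765, 603 to 896 and 533 to 738 in the 3 groups. In bulk tumors, fewer cells of a type and less RNA per cell cannot be told apart, and the part of these shifts in the results below was not tested. Tumors of 1 group are called replicates, but the labels do not link them to separate batches of cells, so p values measure the spread between tumors of the same line.

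In the 10 knockout tumors, genes of the program moved in different directions. *Nqo1* and *Txnrd1* were lower than in the control tumors and *Gclm* was higher, and the other 7 genes did not pass the test. The members called were thus 2 lower, where 12.9% of all 18250 genes tested were called lower, and 1 higher, where 9.23% of all genes were called higher. The median log2 difference was 0.067 over the 10 members and −0.019 over all genes tested. These 3 calls, from limma on log2(normalized count + 1) with adjustment over all genes tested, held when each tumor was left out in turn.

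**Figure D1:**
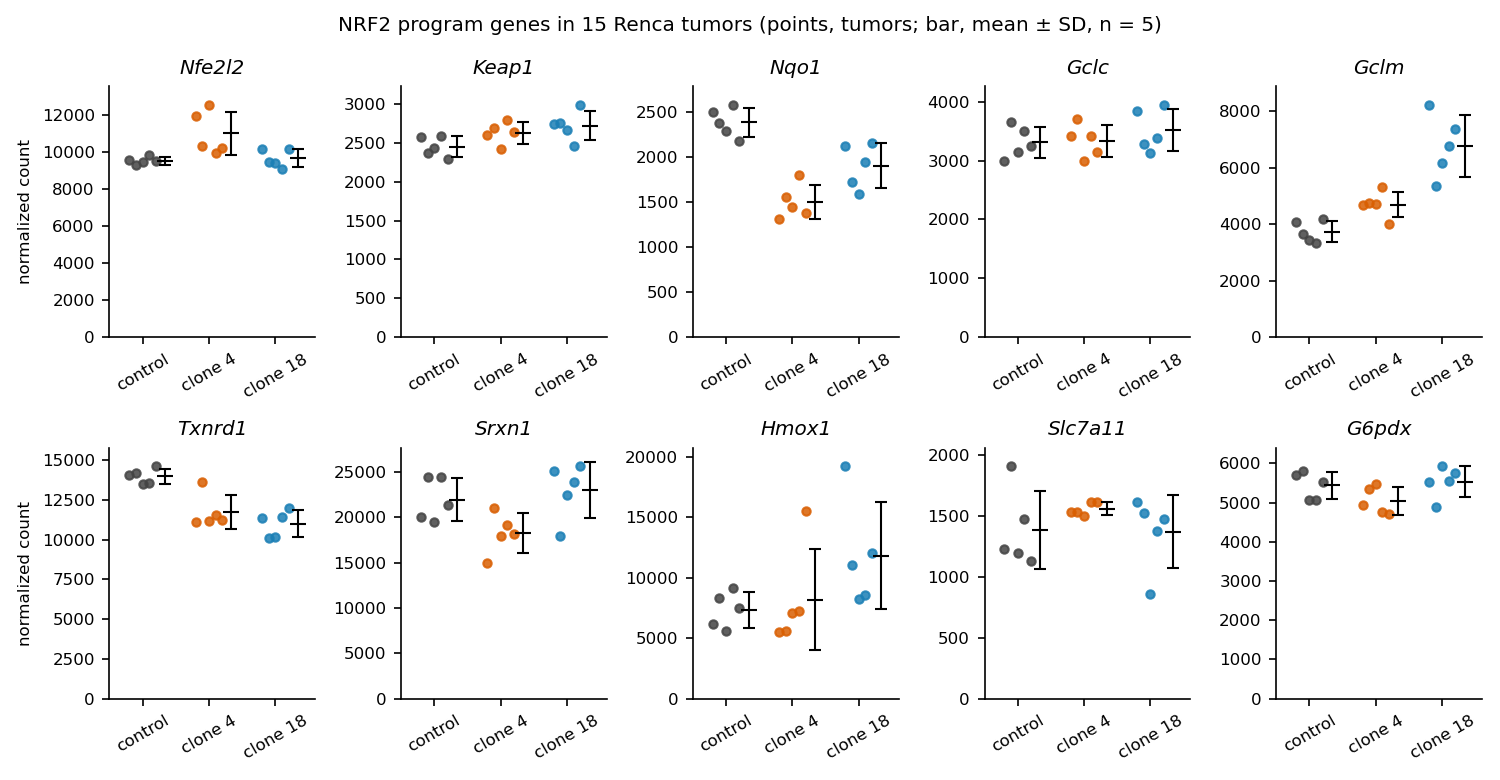
Normalized counts of the 10 program genes, 1 panel per gene with the vertical axis from 0, in control, clone 4 and clone 18 tumors (points, single tumors; bars, mean ± SD, n = 5 per group). All 10 knockout tumors lie below the 5 control tumors for *Nqo1*, the 5 clone 18 tumors lie above all others for *Gclm*, and *Hmox1* spreads from 5486 to 19218.

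*Nfe2l2* (ENSMUSG00000015839, chr2:75675513-75704641, minus strand, mm10) was at 9558, 9287, 9459, 9852 and 9490 in control tumors 1 to 5, at 11965, 10322, 12559, 9926 and 10225 in clone 4 tumors 6 to 10, and at 10183, 9449, 9422, 9104 and 10181 in clone 18 tumors 11 to 15. All 5 clone 4 tumors were above every control tumor, whereas the clone 18 tumors lay on both sides of the control range. Knockout and control tumors differed by 0.11 on the log2 scale (SE 0.068, adjusted p = 0.277, 95% interval −0.033 to 0.25). In the fit of all 15 tumors by group, the difference from control was 0.20 in clone 4 (SE 0.067, adjusted p = 0.0473) and 0.020 in clone 18 (SE 0.067, adjusted p = 0.868). The clone 4 call was lost when clone 4 and the control were fitted without clone 18 (adjusted p = 0.0669), with limma without trend (0.0705), with a two-sample test (0.0937), without tumors 1, 10 and 13 (0.0589) and without any 1 of 10 of the 15 tumors (tumors 1 to 6, 8, 11, 12 or 15; adjusted p 0.0517 to 0.134).

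*Keap1* (ENSMUSG00000003308, chr9:21229730-21239361, minus strand) encodes the adaptor that brings NRF2 to its ubiquitin ligase. It was at 2576, 2372, 2433, 2592 and 2287 in the control tumors, 2602, 2689, 2420, 2796 and 2638 in clone 4, and 2749, 2754, 2661, 2465 and 2994 in clone 18. Of the 10 knockout tumors 8 were above every control tumor, by small margins. The log2 difference was 0.13 (SE 0.054) with an adjusted p of 0.107, and it passed the threshold when the values were scaled to the upper quartile (adjusted p = 0.0323) or quantile normalized (0.0359). The difference from control was 0.10 in clone 4 (SE 0.061, adjusted p = 0.305) and 0.15 in clone 18 (SE 0.061, adjusted p = 0.0832). The clone 18 difference passed with upper quartile scaling (adjusted p = 0.0168), quantile normalization (0.0184), edgeR (0.0355) and DESeq2 (0.0441), and without tumor 14 (0.0383). An antisense gene, Gm16754, overlaps *Keap1*, and the strand setting of the counting is not given in the sources used here.

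*Nqo1* (ENSMUSG00000003849, chr8:107388225-107403206, minus strand) encodes the quinone reductase that is the classical readout of NRF2. It was at 2504, 2381, 2296, 2587 and 2177 in the control tumors, at 1316, 1560, 1446, 1808 and 1380 in clone 4 and at 2128, 1724, 1592, 1945 and 2155 in clone 18. Every knockout tumor was below every control tumor, an order in which 4.87% of all genes tested stood, and tumor 15 of clone 18 came closest to the control range. Knockout tumors averaged 71.4% of the control level, with a log2 difference of −0.50 (SE 0.108, adjusted p = 0.00287; exact two-sided permutation test over 3003 splits, p = 0.00167). The fall was −0.68 in clone 4 (SE 0.096, adjusted p = 0.000109) and −0.33 in clone 18 (SE 0.096, adjusted p = 0.0179), and the latter was not called without tumors 1, 10 and 13, which stood apart in an earlier analysis of these data (−0.25, adjusted p = 0.0986). In the annotation no gene overlaps *Nqo1*.

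Glutathione synthesis begins with glutamate-cysteine ligase, whose modifier subunit is encoded by *Gclm* and whose catalytic subunit is encoded by *Gclc*. *Gclm* (ENSMUSG00000028124, chr3:122245557-122270732, plus strand) was at 4087, 3645, 3429, 3341 and 4171 in the control tumors, at 4691, 4733, 4728, 5309 and 4017 in clone 4 and at 8233, 5346, 6156, 6761 and 7352 in clone 18. The 3 groups were ordered control, clone 4, clone 18, and only tumor 10 of clone 4 fell within the control range. Knockout tumors averaged 153% of the control level, with a log2 difference of 0.59 (SE 0.138, adjusted p = 0.00535; exact two-sided permutation test, p = 0.003). The rise was 0.85 in clone 18 (SE 0.104, adjusted p = 2.22e-05), and it was 0.33 in clone 4 (SE 0.104, adjusted p = 0.0367), where the call was lost without any 1 of tumors 2, 3, 4, 6, 7, 8 or 9 (adjusted p 0.0653 to 0.095) and with limma without trend (0.0689). Gm6061, a processed pseudogene on the same strand, and Gm17494, on the other strand, overlap *Gclm*, so its reads may be shared.

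*Gclc* (ENSMUSG00000032350, chr9:77754535-77794485, plus strand), the partner of *Gclm*, ranged from 2995 to 3660 in the control tumors (median 3250), from 2990 to 3704 in clone 4 (median 3411) and from 3130 to 3952 in clone 18 (median 3376). The 3 groups overlapped, and the log2 difference was 0.047 (SE 0.070, adjusted p = 0.689, 95% interval −0.099 to 0.19). The interval of *Gclm*, 0.30 to 0.88, lies above that of *Gclc*, although the difference between the 2 genes was not itself tested.

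*Slc7a11* (ENSMUSG00000027737, chr3:49892526-50443614, minus strand) encodes the cystine transporter xCT, which supplies the cysteine for glutathione. It was at 1226, 1907, 1193, 1476 and 1128 in the control tumors, at 1532, 1530, 1496, 1610 and 1614 in clone 4 and at 1614, 1523, 861, 1375 and 1473 in clone 18. The clone 4 tumors were close together, with a coefficient of variation of 3.39%, against 23.1% in the control tumors and 21.7% in clone 18. Counting error alone gives about 2.57% at the mean of 1512 reads in clone 4. No comparison passed the test, and the knockout difference was 0.086 (SE 0.139, adjusted p = 0.717, 95% interval −0.21 to 0.38).

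Among the genes of the thioredoxin system, *Txnrd1* (ENSMUSG00000020250, chr10:82833951-82897712, plus strand) encodes cytosolic thioredoxin reductase. It was at 14088, 14157, 13479, 13551 and 14621 in the control tumors, at 11099, 13594, 11171, 11570 and 11215 in clone 4 and at 11371, 10102, 10142, 11445 and 11985 in clone 18. Tumor 7 of clone 4 was the single knockout tumor within the control range. Knockout tumors averaged 81.3% of the control level, with a log2 difference of −0.30 (SE 0.061, adjusted p = 0.00181; exact two-sided permutation test, p = 0.000999). Both clones fell, by 0.26 in clone 4 (SE 0.068, adjusted p = 0.0143) and by 0.35 in clone 18 (SE 0.068, adjusted p = 0.0013). *Eid3* lies within *Txnrd1* on the same strand, and its reads may be shared.

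*Srxn1* (ENSMUSG00000032802, chr2:152105516-152111376, plus strand) encodes sulfiredoxin, which repairs overoxidized peroxiredoxins. It was at 20019, 24401, 19523, 24490 and 21358 in the control tumors, at 14953, 21009, 17915, 19106 and 18141 in clone 4 and at 25120, 17895, 22441, 23900 and 25652 in clone 18. Of the clone 4 tumors 4 were below every control tumor, whereas clone 18 spread across the control range and beyond it. The log2 difference was −0.27 in clone 4 (SE 0.107, adjusted p = 0.0956) and 0.062 in clone 18 (SE 0.107, adjusted p = 0.728), and pooling the clones gave −0.10 (SE 0.114, adjusted p = 0.569).

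*G6pdx* (ENSMUSG00000031400, chrX:74409483-74429194, minus strand) encodes glucose-6-phosphate dehydrogenase, the entry enzyme of the NADPH-producing pentose phosphate pathway. It ranged from 5067 to 5817 in the control tumors (median 5533), from 4705 to 5486 in clone 4 (median 4931) and from 4882 to 5932 in clone 18 (median 5549). The groups overlapped and the difference was −0.044 (SE 0.063, adjusted p = 0.682, 95% interval −0.18 to 0.089). *Ikbkg* overlaps it on the other strand.

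*Hmox1* (ENSMUSG00000005413, chr8:75093621-75100589, plus strand) encodes heme oxygenase 1, which degrades heme and which macrophages also make. It was at 6174, 8348, 5562, 9149 and 7520 in the control tumors, at 5486, 5595, 7053, 7239 and 15473 in clone 4 and at 19218, 11054, 8241, 8561 and 12001 in clone 18. The highest value, in tumor 11 of clone 18, was 3.5 times the lowest, in tumor 6 of clone 4, the widest range among the 10 members. The knockout difference was 0.35 (SE 0.250, adjusted p = 0.356, 95% interval −0.18 to 0.88). The 2 clones gave 0.060 (SE 0.259, adjusted p = 0.916) and 0.64 (SE 0.259, adjusted p = 0.0832). The clone 18 difference from control passed the test without tumor 10 (adjusted p = 0.0254), without tumors 1, 10 and 13 (0.0366), when clone 18 and the control were fitted without clone 4 (0.0452) and after quantile normalization (0.0496). Without tumor 10 the clone 4 difference changed sign (−0.20, adjusted p = 0.570).

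Tumor 10 also stood apart in the summed level of 8 neutrophil markers, at 4545 against 764 to 1082 in the other clone 4 tumors, 1033 to 2249 in the control tumors and 1156 to 2276 in clone 18, with *Ly6g* at 0 in all clone 18 tumors and no marker at 0 in every tumor. Of these markers 2 were lower and 0 higher in the knockout tumors by limma, where 12.9% of all genes tested were called lower and 9.23% higher. None was higher at an unadjusted p under 0.05 or by edgeR, and 1 was by DESeq2. Of the 8 log2 differences 6 were negative and 2 positive, *Mmp9* among the latter (1.02, SE 0.574, adjusted p = 0.230). The summed level of 8 fibroblast markers was also highest in tumor 10, at 184477 against 18881 to 100072 in the other clone 4 tumors, 49296 to 82131 in the control tumors and 60354 to 122120 in clone 18. In tumor 10 *Mmp9*, a marker of the neutrophil list that other cells also make, gave 2202 of the neutrophil sum of 4545. With the group means removed, *Hmox1* and the neutrophil sum had a Pearson r of 0.71 over 15 tumors (permutation p = 0.0345, adjusted p = 0.560 over 70 relations of members with marker sums) and a Spearman rho of 0.67 (permutation p = 0.00955, adjusted p = 0.384), and r was 0.50 without tumors 10 and 12. With the fibroblast sum, r was 0.49 (permutation p = 0.187, adjusted p = 0.715) and rho 0.35 (permutation p = 0.268, adjusted p = 0.749), and r was −0.15 without tumors 6 and 10. With the macrophage sum, r was −0.015 (permutation p = 0.960, adjusted p = 0.996) and rho −0.050 (permutation p = 0.873, adjusted p = 0.951). None of the 70 relations passed the threshold by r or by rho, and 6 had an unadjusted permutation p of r under 0.05. The smallest was for *Srxn1* with the macrophage sum (r = −0.74, permutation p = 0.00436, adjusted p = 0.305, r = −0.63 without tumors 1 and 12). *Gclm* with the neutrophil sum followed (r = −0.61, permutation p = 0.0107, adjusted p = 0.376, r = −0.31 without tumors 10 and 12). The others joined *Slc7a11* with red cell, *Nfe2l2* with renal, *Keap1* with T cell and *Hmox1* with neutrophil markers. The part of these cells in the level of *Hmox1* or of any other member was not tested.

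Levels of different genes can be set side by side only per length, here as normalized counts per kilobase of merged exons. In the control tumors *Srxn1* was highest at 7787 ± 840 (SD, n = 5) and *Hmox1* followed at 4198 ± 849. *Nfe2l2* stood at 2510 ± 54.3, *Txnrd1* at 1973 ± 66.5, *G6pdx* at 1767 ± 114 and *Nqo1* at 1538 ± 105. *Gclc* was at 879 ± 71.4, *Gclm* at 594 ± 60.05, *Keap1* at 522 ± 28.0 and *Slc7a11* was lowest at 99.5 ± 23.0. The ranges over the 5 control tumors did not touch between *Srxn1* and *Hmox1*, but they overlapped between *G6pdx* and *Nqo1* and between *Gclm* and *Keap1*, and the other neighbours in this order did not overlap. In clone 18 the mean of *Gclm*, 1076 per kilobase, stood above the mean of *Gclc*, 934, the reverse of the order of the control means. The reversed order did not hold in every clone 18 tumor.

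The clones were next compared with the control separately, which shows how much of the pooled result each line carries. Both comparisons use the same 5 control tumors. In clone 4, 2 members were called higher (*Nfe2l2* and *Gclm*) and 2 lower (*Nqo1* and *Txnrd1*), where 6.79% of all genes were called higher and 10.0% lower. In clone 18, 1 member was called higher (*Gclm*) and 2 lower (*Nqo1* and *Txnrd1*), where 10.4% of all genes were called higher and 14.2% lower. The groups did not overlap for *Nqo1* in both clones, for *Nfe2l2* in clone 4, and for *Gclm* and *Txnrd1* in clone 18. All genes tested were without overlap, lower than the control, in 8.2% of cases for clone 4 and 9.82% for clone 18, and higher in 5.8% and 7.24%.

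**Figure D2:**
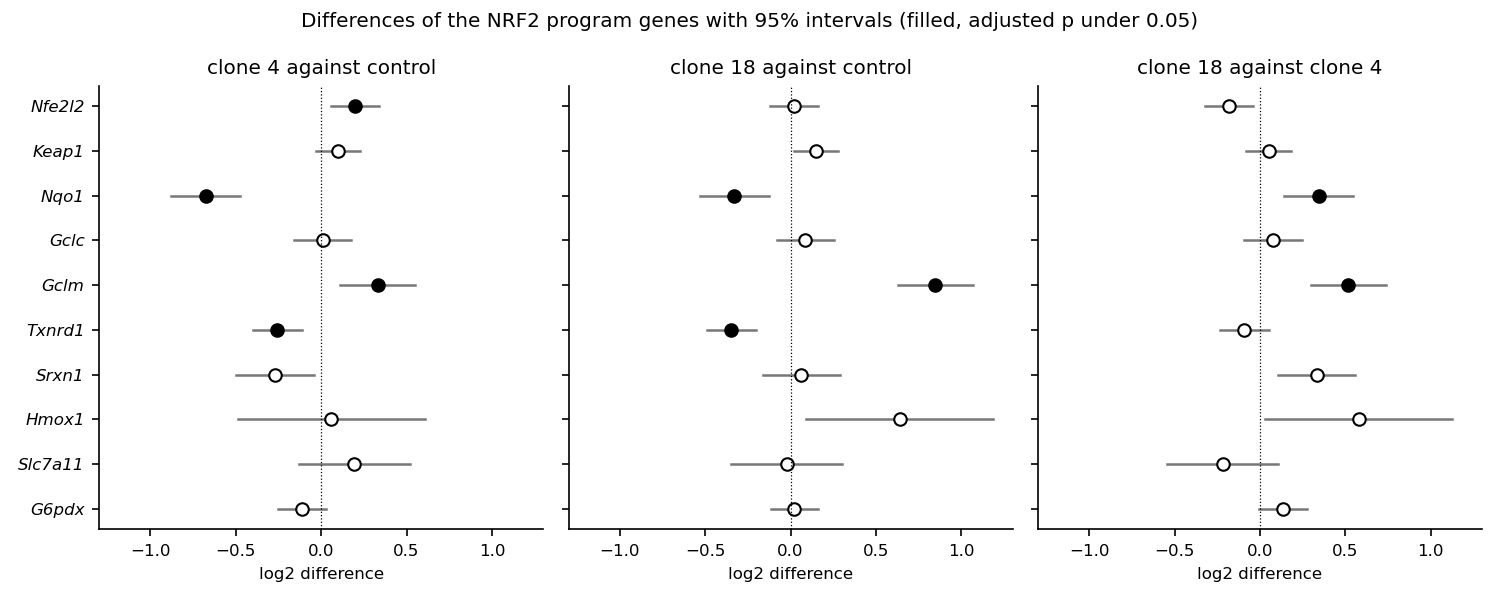
Log2 differences of the 10 program genes (horizontal axis) with 95% intervals from limma, for clone 4 against control, clone 18 against control and clone 18 against clone 4 (filled points, adjusted p under 0.05). *Gclm* is filled and to the right of 0 in all 3 panels, and *Nqo1* lies at −0.68, −0.33 and 0.34.

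The difference between the clones was tested directly. *Gclm* was higher in clone 18 than in clone 4 by 0.52 (SE 0.104, adjusted p = 0.00687), with every clone 18 tumor above every clone 4 tumor, as were 2.64% of all genes tested. *Nqo1* was higher in clone 18 by 0.34 (SE 0.096, adjusted p = 0.0491), with 3 of 5 clone 18 tumors above all of clone 4. That made 2 members higher, where 2.49% of all genes were called higher, and 0 lower, where 2.13% were called lower. Of the lower members 1, *Nfe2l2*, had an unadjusted p under 0.05, and edgeR and DESeq2 also called 0. The *Nqo1* call was lost without any 1 of 12 tumors (all but 9, 12 and 13; adjusted p 0.0544 to 0.119), and a two-sample test between the clones, adjusted over all genes, called neither gene (adjusted p = 0.0888 for *Gclm* and 0.199 for *Nqo1*). *Srxn1* (0.33, SE 0.107, adjusted p = 0.0892) passed only without tumor 12 (adjusted p = 0.0205) and with DESeq2 (0.0336), and *Hmox1* (0.58, SE 0.259, adjusted p = 0.243) passed without tumor 10 (adjusted p = 0.0296). *Txnrd1*, lower in both clones, gave a clone difference of −0.091 (SE 0.068, adjusted p = 0.519, 95% interval −0.23 to 0.052).

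A shift of whole chromosomes was looked at beside the 3 pooled calls. The median log2 difference of knockout against control was −0.0032 over 899 genes of chromosome 3, which holds *Gclm*, 0.014 over 870 genes of chromosome 8, which holds *Nqo1* and *Hmox1*, and 0.043 over 722 genes of chromosome 10, which holds *Txnrd1*.

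Apart from *Keap1*, described above, the partners and brakes of NRF2 listed here were lower where they were called. Of 8 genes (3 small MAF genes, *Bach1*, *Nfe2l1*, *Cul3*, *Rbx1* and *Sqstm1*), 4 were lower, where 12.9% of all genes tested were called lower, and 0 higher, where 9.23% were called higher, and none was higher at an unadjusted p under 0.05 or by edgeR or DESeq2. *Mafk*, one of the small MAF partners, fell by 0.57 (SE 0.069, adjusted p = 1.73e-05) and was at 1715 to 2036 in the control tumors, 1222 to 1441 in clone 4 and 1150 to 1317 in clone 18. Every knockout tumor was below every control tumor, as for 4.87% of all genes tested, while the 2 clones overlapped. *Bach1*, a repressor that competes with NRF2 for the same elements, fell by 0.25 (SE 0.061, adjusted p = 0.00737). The ligase genes *Cul3* and *Rbx1* fell by 0.23 (SE 0.059, adjusted p = 0.0101) and 0.20 (SE 0.064, adjusted p = 0.0345, lost without tumor 2, 4 or 14, adjusted p 0.0534 to 0.108). *Sqstm1*, whose product p62 binds KEAP1, was at −0.052 (adjusted p = 0.670) and *Nfe2l1* at −0.099 (adjusted p = 0.191). The median of the list was −0.21. By clone against control, *Bach1* was not called in clone 4 (adjusted p = 0.0602) and *Rbx1* was not called in clone 18 (adjusted p = 0.0989). *Mafk* and *Cul3* were called lower in both clones.

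Of 29 further NRF2 targets in the table, 6 were higher and 6 lower in the knockout tumors and 17 did not pass, where 9.23% of all genes tested were called higher and 12.9% lower. The higher genes were *Gsta4*, a glutathione transferase (1.05, SE 0.336, adjusted p = 0.0324), *Me1*, the cytosolic malic enzyme that makes NADPH (0.43, SE 0.081, adjusted p = 0.00106), *Aox1*, an aldehyde oxidase (0.39, SE 0.108, adjusted p = 0.0154), *Akr1b8*, an aldo-keto reductase (0.26), and *Blvra* and *Blvrb*, the biliverdin reductases that act after heme oxygenase (0.20 and 0.29). The lower genes were the drug efflux pumps *Abcc1* (−0.59, SE 0.150, adjusted p = 0.00869) and *Abcc4* (−0.41), *Prdx6*, a peroxiredoxin (−0.57, SE 0.076), *Gstp1* (−0.24), *Pgd* of the pentose phosphate pathway (−0.22) and *Aldh3a1*. *Aldh3a1*, an aldehyde dehydrogenase, was at 12.8 to 21.3 normalized counts in the control tumors and at 0 in 6 of 10 knockout tumors, whose highest value came from 2 reads. The list median was 0.054. Leaving out single tumors ended the call of *Blvrb* in 10 of 15 cases (tumors 1, 2, 3, 5, 8, 9, 11, 13, 14 and 15, adjusted p 0.0524 to 0.118), of *Gstp1* in 8 (tumors 1, 2, 4, 5, 6, 8, 9 and 12, adjusted p 0.0504 to 0.0817), of *Gsta4* in 6 (tumors 2, 3, 4, 13, 14 and 15, adjusted p 0.0504 to 0.0887), of *Pgd* without tumor 1 (adjusted p = 0.0503) and of *Aox1* without tumor 3 (adjusted p = 0.0506), and the number called higher ranged from 3 (without tumor 3) to 7. By clone against control, 3 of 29 were higher and 9 lower in clone 4, beside 6.79% and 10.0% of all genes tested. In clone 18, 10 were higher and 4 lower, beside 10.4% and 14.2%. *Gsta4*, *Aox1*, *Blvrb* and *Abcc1* did not pass in clone 4 (adjusted p 0.0811 to 0.366). *Gstp1* and *Pgd* did not pass in clone 18 (adjusted p = 0.239 and 0.0837).

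**Figure D3:**
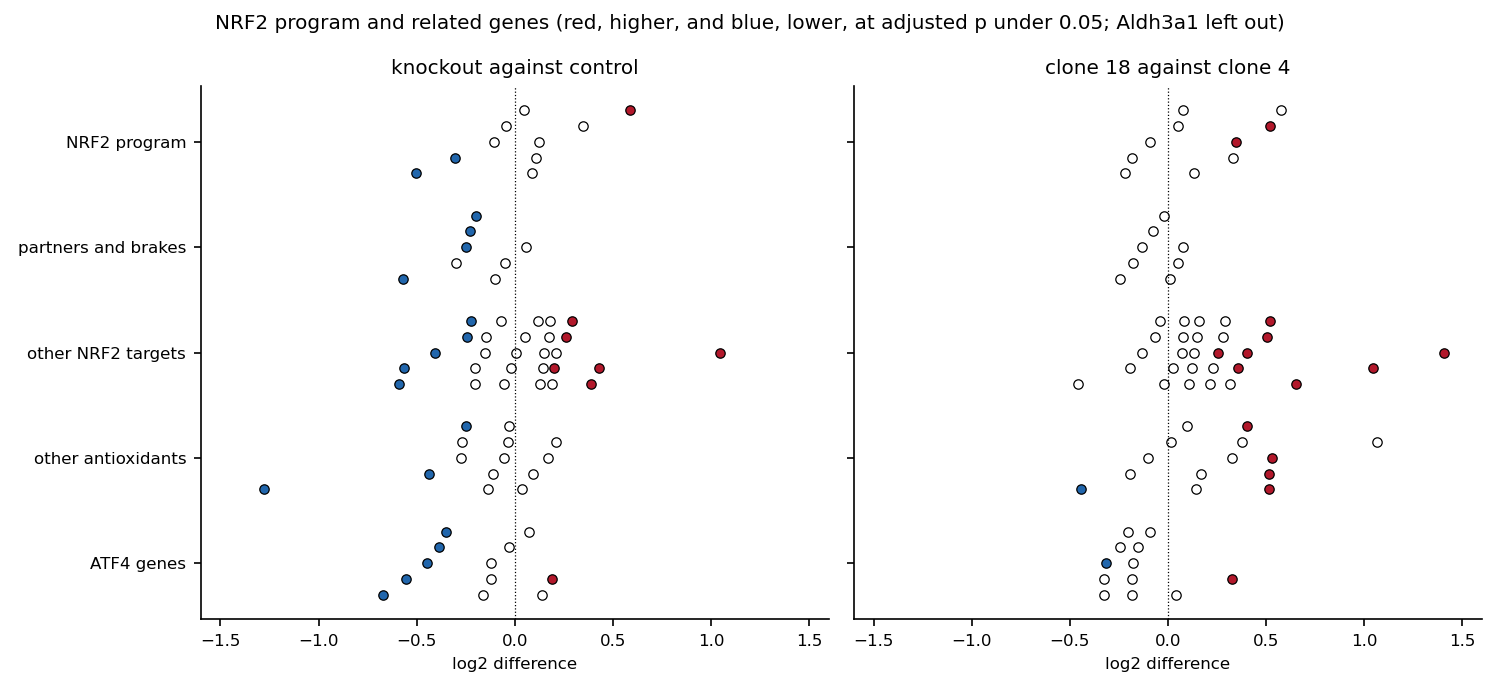
Log2 differences (horizontal axis) of the NRF2 program, its partners and brakes, further NRF2 targets, other antioxidant genes and ATF4 genes, 1 point per gene, for knockout against control and for clone 18 against clone 4 (red, higher, and blue, lower, at adjusted p under 0.05; *Aldh3a1* is left out because most knockout tumors were at 0). Red and blue points mix among the NRF2 targets in the left panel, 6 of each with *Aldh3a1* counted, and the right panel shows 8 red and 0 blue ones.

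Between the clones, 8 of these 29 targets were higher in clone 18 and 0 lower, where 2.49% of all genes tested were called higher and 2.13% lower, and the list median was 0.15 against −0.010 over all genes tested. Of the lower genes 2 had an unadjusted p under 0.05, edgeR called 0 and DESeq2 1. *Gsta4* was at 434 to 905 in clone 4 and 1201 to 2253 in clone 18, a difference of 1.41 (SE 0.20, adjusted p = 0.00035). *Idh1*, the cytosolic isocitrate dehydrogenase that makes NADPH, was at 14298 to 20558 in clone 4 and 29988 to 42442 in clone 18, and the control tumors were at 20409 to 27125 (clone difference 1.05, SE 0.115, adjusted p = 2.75e-05). The glutathione transferases *Gstm1* (0.65), *Mgst1* (0.52), *Gstm2* (0.36) and *Gstp1* (0.25), the ferritin light chain gene *Ftl1* (0.51) and *Aox1* (0.40) completed the group. The calls of *Gstm2* (tumors 5, 6, 7, 9, 10, 11, 13, 14 and 15, adjusted p 0.0531 to 0.10) and *Gstp1* (tumors 1, 5 to 11, 13 and 15, adjusted p 0.0512 to 0.0958) were lost without any 1 of the tumors named, and those of the other 6 genes were not lost without any single tumor. These targets and the members *Gclm* and *Nqo1* share a direction between the clones, but the list was chosen with earlier results of these data known. Against control, *Gstm1*, *Gstm2* and *Gstp1* were called lower in clone 4 only, and *Gsta4*, *Mgst1* and *Aox1* higher in clone 18 only. *Idh1* was called lower in clone 4 and higher in clone 18, and *Ftl1* was called in neither.

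Of 14 other antioxidant genes, 3 were lower and 0 higher in the knockout tumors, where 12.9% of all genes were called lower and 9.23% higher (1, *Prdx4*, had an unadjusted p under 0.05 among the higher ones, and edgeR and DESeq2 called 0). The lower genes were the superoxide dismutases *Sod1* (−0.25, SE 0.061, adjusted p = 0.00709) and *Sod3* (−1.28, SE 0.433, adjusted p = 0.0416) and the mitochondrial thioredoxin reductase *Txnrd2* (−0.44, SE 0.109, adjusted p = 0.00788), and the call of *Sod3* was lost without any 1 of tumors 1 to 5, 7, 8, 9, 11 or 14 (adjusted p 0.0502 to 0.111). *Txnrd2* thus fell together with its cytosolic counterpart *Txnrd1*, and *Sod2* was at 0.039 (adjusted p = 0.722). By clone against control, 7 of the 14 were lower and 0 higher in clone 4, beside 10.0% and 6.79% of all genes. None was higher in clone 4 at an unadjusted p under 0.05 or by edgeR or DESeq2. In clone 18, 2 were lower and 2 higher, beside 14.2% and 10.4%. Between the clones, *Cat* (0.52), *Gpx1* (0.40), *Prdx5* (0.53) and *Glrx* (0.51) were higher in clone 18 and *Txnrd2* was lower (−0.44), where 2.49% of all genes were called higher and 2.13% lower. The *Glrx* call was lost without any 1 of tumors 6 to 9, 11, 13, 14 or 15 (adjusted p 0.0536 to 0.0924). Against control, *Gpx1* (−0.34) and *Prdx5* (−0.32) were called lower in clone 4 only, *Cat* (0.47) higher in clone 18 only, and *Txnrd2* lower in both. *Glrx* was called against control in neither clone.

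ATF4 is the stress factor that shares *Slc7a11* with NRF2 and drives amino acid synthesis genes, so its genes were described beside the program. Of 12 genes, 5 were lower and 1 higher in the knockout tumors, with a median of −0.14, where 12.9% of all genes were called lower and 9.23% higher. The serine and one-carbon genes *Shmt2* (−0.67, SE 0.085) and *Phgdh* (−0.45, SE 0.074), *Sesn2*, a sestrin (−0.56, SE 0.083), *Nupr1* (−0.39) and *Chac1*, whose product degrades glutathione (−0.35, SE 0.092, adjusted p = 0.011), fell, and *Mthfd2* rose (0.19, SE 0.062, adjusted p = 0.0336), a call lost without any 1 of tumors 1, 2, 3, 5 or 8 (adjusted p 0.0535 to 0.114). *Atf4* was at −0.028 (adjusted p = 0.904) and *Asns* at 0.073 (adjusted p = 0.563). By clone against control, *Chac1* was not called in clone 4 (adjusted p = 0.0823). *Nupr1* and *Mthfd2* were not called in clone 18 (adjusted p = 0.0636 and 0.197). Between the clones *Shmt2* was lower (−0.32) and *Nupr1* higher (0.33) in clone 18, the latter lost without any 1 of tumors 6, 7, 8, 10, 11, 13, 14 or 15 (adjusted p 0.0525 to 0.0867).

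The members were then examined for variation from tumor to tumor apart from the groups, by correlating log2 values after the mean of each group was taken away. Of the 45 pairs, 34 had a positive Pearson r, and among the 28 pairs of the 8 target genes 24 were positive with a median r of 0.42. The same count was not made over pairs of other genes, so it does not show whether the members vary together more than other genes. The highest values joined *Txnrd1* with *Srxn1* (r = 0.66, rho = 0.67, permutation p = 0.0180 and 0.0112, adjusted p = 0.251 and 0.126) and *Gclc* with *Txnrd1* (r = 0.65, rho = 0.70, permutation p = 0.0224 and 0.0145, adjusted p = 0.251 and 0.131). Without the 2 tumors farthest from the median on the first gene, tumors 7 and 15, r was 0.54 and 0.45. No pair passed an adjusted p of 0.05 over the 45 pairs by r or by rho, and 6 pairs by r and 11 by rho had an unadjusted permutation p under 0.05. *Nfe2l2* had r between −0.16 and 0.28 with the 9 other members. The group means and the residual correlations differ in form, since *Nqo1* and *Gclm* moved in opposite directions between knockout and control but had an r of 0.57 within groups (rho = 0.58, permutation p = 0.0568 and 0.0478, adjusted p = 0.251 and 0.203; r = 0.49 without tumors 9 and 13).

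**Figure D4:**
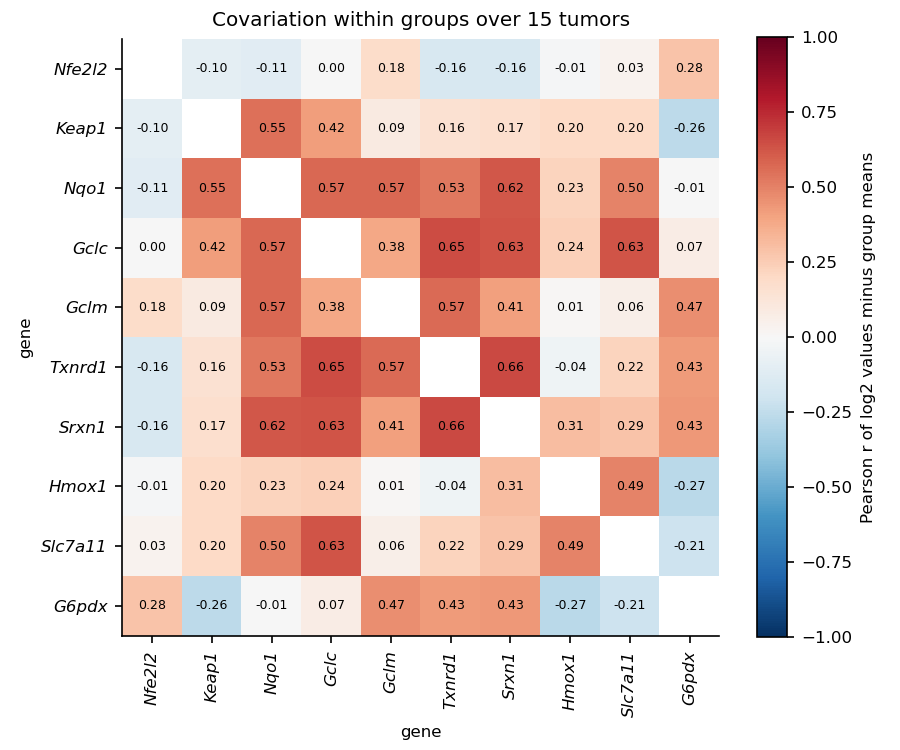
Pearson correlation of each pair of program genes over 15 tumors after group means were removed (color scale from −1 to 1, value in each cell). The cells among *Nqo1*, *Gclc*, *Gclm*, *Txnrd1* and *Srxn1* hold 0.38 to 0.66, and the *Nfe2l2* row stays between −0.16 and 0.28.

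Genes most like a member were taken for 3 members, by the same residual correlation among 12155 other genes with a mean of at least 100. For *Hmox1* they were *Ptp4a1* (r = 0.95), *Arg1* (r = 0.93) and *Srgn* (r = 0.91), with r of 0.91, 0.90 and 0.90 without tumors 10 and 11. *Arg1*, the arginase of suppressive myeloid cells, was at 41.7 to 518 in the control tumors and at 24.1, 96.5, 220, 239 and 4411 in clone 4, where the last is tumor 10, and it was at 4031 in tumor 11, the tumor with the highest *Hmox1*. For *Nqo1* the nearest genes were *Wls* (r = 0.94), *Rnmt* (r = 0.93) and *Rsrc1* (r = 0.92), and for *Gclm* they were *Pgm3* (r = 0.86), *Palm* (r = 0.85) and *Prpsap1* (r = 0.85). None of these 9 genes is a member or stands in the lists above. Each was picked as the highest of 12155 over 15 tumors, which by itself gives a high r. The nearest gene of every member had an r of 0.86 to 0.95.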

How the data were processed

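RNA from 15 Renca tumors was sequenced. The authors used tophat2 for alignment to mm10, HTSeq for read counts per gene and DESeq for scaling each tumor by its size factor, and the deposited signal is these normalized counts rounded to 0.1. The tool versions, gene annotation, strand setting and gene filter are not given in the sources used here. Below 8000, 100% of a tumor's values lay within 0.06 of a multiple of the value of 1 read, which gave back whole reads for the count models.

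From 18279 genes, the 29 at 0 everywhere were left out and 18250 tested. With limma 3.58.1 (trend), 1 fit set 10 knockout against 5 control tumors and another held 1 term for each of the 3 groups. The scale was log2(normalized count + 1), which understates fold changes of low genes. P values were adjusted over all genes tested by the Benjamini-Hochberg method, with a threshold of 0.05. The study pooled the clones and adjusted a two-sample test over a gene set, and a two-sample test adjusted over all genes was an alternative here. Exact permutation tests were two-sided and used 3003 splits of 5 against 10 and 252 of 5 against 5. The smallest p they allow is 0.000333 and 0.00794. Correlations were computed on log2 values minus group means with 100000 shuffles of tumors within groups. Of the lists, *Gpx2* is not in the table. Relations with marker sums were added after the values were seen.

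Alternatives were pseudocounts of 0.1 and 5, a mean of at least 10, upper quartile scaling, quantile normalization, limma with no trend, recovered reads in DESeq2 1.42.0 and in edgeR 4.0.16, each clone alone, the two-sample test, and tumors left out. The fits were tested on simulated data. The members, gene lists and tests were chosen with earlier results of these data known. Named genes are the 10 members, *Pbrm1*, list genes past the threshold, up to 4 others per list, and for 3 members the 3 genes with the highest correlation. *Ly6g*, *Mmp9* and the renal markers were named after their values were seen. Gene positions are from GENCODE M21 (GRCm38) and promoters from RefSeq GRCm38.p6. Software was matplotlib 3.10.9, scipy 1.17.1, pandas 2.3.3, numpy 2.4.6, Python 3.11.15 and R 4.3.3.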

Additional observations from a re-analysis of the deposited data

Results flagged for a closer look

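In groups of 5 tumors, a single tumor lay far from the other 4 in 5 of 54 groups examined, where chance gives about 2.7. *Txnrd1* in clone 4 was at 13594 in tumor 7 against 11099 to 11570 in the others, and *Hmox1* in clone 4 was at 15473 in tumor 10 against 5486 to 7239. The summed neutrophil markers were at 4545 in tumor 10 against 764 to 1082 in the other clone 4 tumors and at 2276 in tumor 12 against 1156 to 1285 in the other clone 18 tumors. The summed red cell markers in clone 4 were at 5028 in tumor 8 against 3436 to 3865.

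Effects against the same control tumors differed between the clones, by the limma contrast of clone 18 minus clone 4, for 2 members, *Nqo1* (log2 difference 0.34, adjusted p = 0.0491) and *Gclm* (0.52, adjusted p = 0.00687). The same held for 8 further NRF2 targets, *Gsta4* (1.41), *Gstm1* (0.65), *Gstm2* (0.36), *Gstp1* (0.25), *Mgst1* (0.52), *Idh1* (1.05), *Aox1* (0.40) and *Ftl1* (0.51), for the antioxidant genes *Cat* (0.52), *Gpx1* (0.40), *Prdx5* (0.53), *Txnrd2* (−0.44) and *Glrx* (0.51), and for the ATF4 genes *Shmt2* (−0.32) and *Nupr1* (0.33). Adjusted p values of these 15 list genes ranged from 2.75e-05 to 0.0428.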

How the results depend on the processing

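No paired analysis was possible because the tumor numbers 1 to 15 link no tumors of different groups. The knockout calls of *Nqo1*, *Txnrd1* and *Gclm* kept their direction and passed the threshold under every alternative run, and *Pbrm1* did too. Each group is 1 line, which no alternative can change, and counting error was a large part of the spread for *Slc7a11* in clone 4. The causes of the changes below were not tested.

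Members called higher in the knockout tumors numbered 1, and 2 with upper quartile scaling, quantile normalization or clone 18 alone. Over all 18250 genes tested, 1684 were called higher at the main setting and 2033 with upper quartile scaling. With quantile normalization 2265 were called higher, and with clone 18 alone 1793. In clone 4 against control they numbered 2, but 0 with limma without trend, 1 with the two-sample test and 1 without tumors 1, 10 and 13, and 0 to 2 when single tumors were left out. In clone 18 against control they numbered 1, but 2 with upper quartile scaling, edgeR, DESeq2 or without tumors 1, 10 and 13, 3 with quantile normalization, and 1 to 2 without single tumors. Members called lower in clone 18 numbered 2, and 1 without tumors 1, 10 and 13. For all genes, those called higher in clone 4 were 1240, with 1149, 1125 and 1275 under these 3 alternatives. In clone 18 they were 1901, with 2399 by upper quartile scaling, 2229 by edgeR, 2308 by DESeq2 and 2455 by quantile normalization. Without tumors 1, 10 and 13 they were 1598, and those called lower were 2047 against 2598 at the main setting. Between the clones 2 members were called higher, but 1 with limma without trend, 0 with the two-sample test and 1 to 3 without single tumors.

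Among the lists, further NRF2 targets called higher in the knockout tumors ranged from 3 to 7 without single tumors, and those called lower between the clones were 1 with DESeq2 and 0 to 1 without single tumors. Other antioxidant genes called lower in the knockout tumors were 5 with clone 4 alone, and those called higher were 2 with clone 18 alone and 0 to 1 without single tumors. Between the clones 2 were called lower with DESeq2, 1 to 2 without single tumors, and 1 was called higher with the two-sample test. ATF4 genes called higher in the knockout tumors were 0 with limma without trend, without tumors 1, 10 and 13 or with clone 18 alone, and 0 to 1 without single tumors. Between the clones those called higher were 0 with limma without trend, the two-sample test or without tumors 1, 10 and 13, and 0 to 1 without single tumors, and those called lower were 1 to 2 without single tumors. Calls over all genes moved too. Between the clones they were 455 higher and 389 lower, with 719 and 635 by DESeq2 and 385 and 297 without trend. The two-sample test gave 191 and 152 there. For knockout against control, 2356 were called lower, and 1885 with clone 4 alone.

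Differences that did not pass the test changed sign in places. With clone 18 alone as the knockout group, *Srxn1* was at 0.062, *Slc7a11* at −0.022 and *G6pdx* at 0.023. In clone 4, *Gclc* was at −0.00589 and *Hmox1* at −0.26 without tumors 1, 10 and 13, and without single tumors they ranged from −0.030 to 0.047 and from −0.20 to 0.17. In clone 18, *Slc7a11* was at 0.019 with upper quartile scaling, 0.014 with quantile normalization, 0.0037 with edgeR and 0.099 without tumors 1, 10 and 13. Without single tumors it ranged from −0.090 to 0.14, and *G6pdx* from −0.0030 to 0.067. No pair of members passed the threshold in the correlations under pseudocounts of 0.1 and 5 or upper quartile scaling, with none at the main setting.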
